A study of Homo sapiens with 6 samples.

Results

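Described here are 6 genes of the Reelin pathway in HAP1 cells that lack DEGS1: RELN, its receptors VLDLR and LRP8, the adaptor DAB1, the kinase FYN and the motor regulator PAFAH1B1. They were taken by symbol from the deposited table of 35238 gene symbols, where all 6 have a row, and 5 of the 6 passed the expression filter that left 16954 genes for testing. DAB1 did not pass it. The genes were chosen by their roles and with the counts and differences of knockout against wildtype in these same libraries known. Their differences between genotypes are therefore given as a description, without p-values, and support nothing by themselves.

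HAP1 is an established, near-haploid human cell line. The series holds 3 libraries of HAP1 cells with the genotype DEGS1 knockout and 3 of wildtype HAP1 cells, both labelled as untreated. DEGS1 is the desaturase that turns dihydroceramide into ceramide. The labels do not say how many knockout clones there were, or whether replicates were separate cultures, so the spread between libraries may be technical and a difference between genotypes cannot be told apart from one between clones. No marker list was used to check the identity of the line.

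Reelin is a large secreted glycoprotein known for guiding the layering of neurons in the developing cortex. It binds VLDLR and LRP8 (also called ApoER2), both of the LDL receptor family. The adaptor DAB1 docks on the receptor tails and is phosphorylated by FYN and related kinases, and the signal then reaches CRK proteins, PI 3-kinase and the cytoskeleton. PAFAH1B1, also known as LIS1, regulates the motor dynein and is needed for the same neuronal migration.

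The RefSeq table of GRCh38.p14 gives RELN, VLDLR and LRP8 a single start each. The 250 bases before that start are shown for the ligand and both receptors, since their levels are compared below. RELN is at chr7:103989659-103989908 on the minus strand, VLDLR at chr9:2621537-2621786 on the plus strand and LRP8 at chr1:53328071-53328320 on the minus strand. Capitals mark GGGCGG, the GC box, on either strand, and CACGTG, an E-box, whose strands read alike. Neighbouring GC boxes overlap in places.
RELN: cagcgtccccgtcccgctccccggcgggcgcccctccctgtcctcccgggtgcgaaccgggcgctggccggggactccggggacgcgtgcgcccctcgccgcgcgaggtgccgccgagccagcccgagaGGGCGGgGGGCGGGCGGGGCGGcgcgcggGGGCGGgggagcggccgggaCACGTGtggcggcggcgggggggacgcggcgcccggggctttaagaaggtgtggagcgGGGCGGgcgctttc
VLDLR: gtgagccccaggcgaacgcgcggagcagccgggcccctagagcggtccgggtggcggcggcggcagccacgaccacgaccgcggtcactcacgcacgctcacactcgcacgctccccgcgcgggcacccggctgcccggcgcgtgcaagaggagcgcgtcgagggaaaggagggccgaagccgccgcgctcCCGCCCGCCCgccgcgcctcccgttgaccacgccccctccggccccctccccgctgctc
LRP8: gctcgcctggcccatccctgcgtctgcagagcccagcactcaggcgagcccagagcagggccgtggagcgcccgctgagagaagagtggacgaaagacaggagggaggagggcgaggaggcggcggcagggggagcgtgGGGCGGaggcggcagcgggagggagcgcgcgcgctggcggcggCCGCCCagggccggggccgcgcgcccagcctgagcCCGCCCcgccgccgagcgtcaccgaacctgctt

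The RELN window held 6 GC boxes and 1 E-box, and 83.2% of its bases were G or C. VLDLR had 2 GC boxes and LRP8 3, at 78.8% and 77.2% G or C, and neither window held an E-box. Of 27305 promoters of the same length, 42.3% held a GC box and 6.49% an E-box, and the median was 58% G or C. RELN held 43 CpG pairs, more than 99% of these promoters, VLDLR 41 (98.3%) and LRP8 31 (89.4%), against a median of 11. These windows describe the letters before the starts and were not measured in these libraries.

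Total counts ran from 19389644 to 27659835 in the knockout libraries and from 17322756 to 28988522 in wildtype. Levels are CPM, counts per 1000000 of a library total adjusted by edgeR's trimmed-mean scaling, and a count of 3, the floor used here, equals 0.109 to 0.161 CPM. DEGS1 stood at 9.49, 6.88 and 10.4 CPM in the knockout libraries, against 105, 123 and 95.5 CPM in wildtype (log2 fold change -3.59, SE 0.17), so its level matches the genotype labels. In edgeR's quasi-likelihood test, at a Benjamini-Hochberg adjusted p under 0.05, 256 genes rose and 500 fell. Once a fitted dependence on length and GC content was taken out of every library these were 421 and 497, a share of 45.9% higher in place of 33.9%. Wildtype replicate 2 stands apart, since 3825 genes passed without it, 1835 higher and 1990 lower, so the fold changes of the 5 tested genes are also given without it. The count was 424 and 380 without knockout replicates 1 and 3 and 441 without wildtype replicate 1.

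RELN had the largest difference of the 5 tested genes. Its level was 183, 150 and 125 CPM in the knockout libraries, against 44.5, 50.7 and 32.2 CPM in wildtype. The groups were far apart, with the lowest knockout library more than 70 CPM above the highest wildtype library. The means were 152.7 ± 29.2 and 42.5 ± 9.4 CPM (SD, n = 3 each), and the log2 fold change was 1.84 (SE 0.18), or 3.59-fold. Since these are bulk libraries, more cells expressing RELN and more RNA per cell cannot be told apart.

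The spread of RELN within a genotype was wide. The coefficient of variation was 19.1% over the knockout and 22.1% over the wildtype libraries, where counting alone gives 1.66% and 3.25%. Its within-genotype SD of 0.307 on the log2 scale exceeded that of 97.6% of the 1000 genes nearest to it in mean level, whose median was 0.142. The log2 fold change without wildtype replicate 2 was 1.99, and over the 14 other settings tried it ranged from 1.68 to 1.99.

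**Figure D1:**
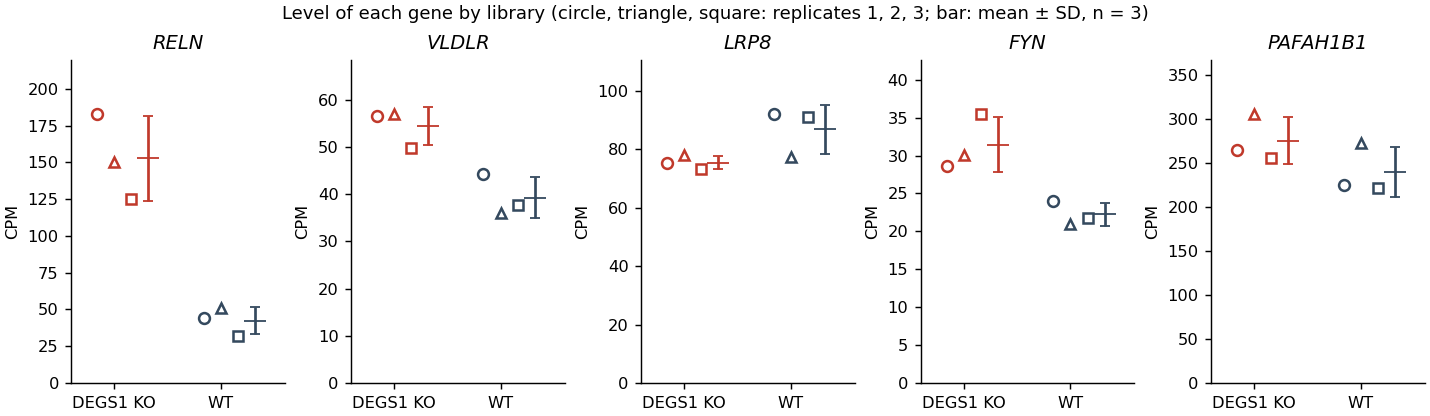
CPM of RELN, VLDLR, LRP8, FYN and PAFAH1B1 in each library, with knockout libraries left and wildtype libraries right, and the mean ± SD of 3 libraries beside the points. Knockout and wildtype points do not overlap for RELN, VLDLR and FYN, and overlap for LRP8 and PAFAH1B1; DAB1, with 0 to 2 counts per library, is not drawn.

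The receptors differed from each other. VLDLR, which also takes up triglyceride-rich lipoproteins, stood at 56.6, 57.0 and 49.8 CPM in the knockout libraries, against 44.2, 36.0 and 37.6 CPM in wildtype. Every knockout library was above every wildtype library, with a gap of under 6 CPM. The log2 fold change was 0.47 (SE 0.12), and 0.42 without wildtype replicate 2. RefSeq lists an antisense gene, VLDLR-AS1, that has no row in the table, and its reads cannot be told from those of VLDLR where the strand setting is not given.

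LRP8, the receptor better known from work on synapses, stood at 75.2, 77.9 and 73.2 CPM in the knockout libraries, against 92.1, 77.2 and 91.2 CPM in wildtype. The groups overlap, because wildtype replicate 2 lies inside the knockout range. The log2 fold change was -0.20 (SE 0.11) and was -0.28 without that library. With the trend on length and GC content removed it was -0.09, the smallest of all settings. The knockout libraries of LRP8 were close together, with a coefficient of variation of 3.16% against 9.61% in wildtype.

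DAB1, the adaptor that both receptors need to pass the Reelin signal on, was at or under the floor everywhere. It had 0, 2 and 0 counts in the knockout libraries and 0, 1 and 2 counts in wildtype. No library reached 3 counts, so no fold change is given, and DAB1 RNA was not detectable above the floor at this depth in either genotype.

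FYN, the Src-family kinase that phosphorylates DAB1, stood at 28.6, 30.1 and 35.5 CPM in the knockout libraries, against 24.0, 21.0 and 21.7 CPM in wildtype. The groups do not overlap, although knockout replicate 1 and wildtype replicate 1 are within 5 CPM. The log2 fold change was 0.50 (SE 0.12), and 0.46 without wildtype replicate 2. It was lowest without knockout replicate 3, at 0.40.

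PAFAH1B1 was the most abundant of the 6, at 265, 306 and 256 CPM in the knockout libraries, against 225, 273 and 222 CPM in wildtype. Here the groups overlap, and replicate 2 was the highest library of each genotype. The log2 fold change was 0.20 (SE 0.13), and 0.31 without wildtype replicate 2. RefSeq lists 2 pseudogenes of PAFAH1B1 that have no row in the table, so its count may be shared with them.

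By edgeR's test over all genes RELN, VLDLR and FYN passed, 3 of 5 and all higher, where 1.51% of all tested genes were called higher and 2.95% lower (4.46% in all). The libraries of the 2 genotypes did not overlap in the same 3, as in 20.8% of all tested genes. Because the genes were chosen with these values known, nothing is read from either count, or from the calls in other settings that follow. RELN passed in all 14 other settings, VLDLR in 9 and FYN in 6. Without knockout replicates 1, 2 and 3 or wildtype replicate 3, VLDLR had log2 fold changes of 0.46, 0.44, 0.54 and 0.44 and did not pass. FYN did not pass without knockout replicates 1, 2 and 3 (0.58, 0.53 and 0.40) or wildtype replicates 1 and 3 (0.56 and 0.48). Scaled by library size only, neither VLDLR (0.41) nor FYN (0.44) passed. FYN also did not pass with a minimum of 1 CPM in 3 libraries (0.49) or with chromosome medians removed (0.43). LRP8 and PAFAH1B1 passed in 1 setting each, the fit without wildtype replicate 2.

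**Figure D2:**
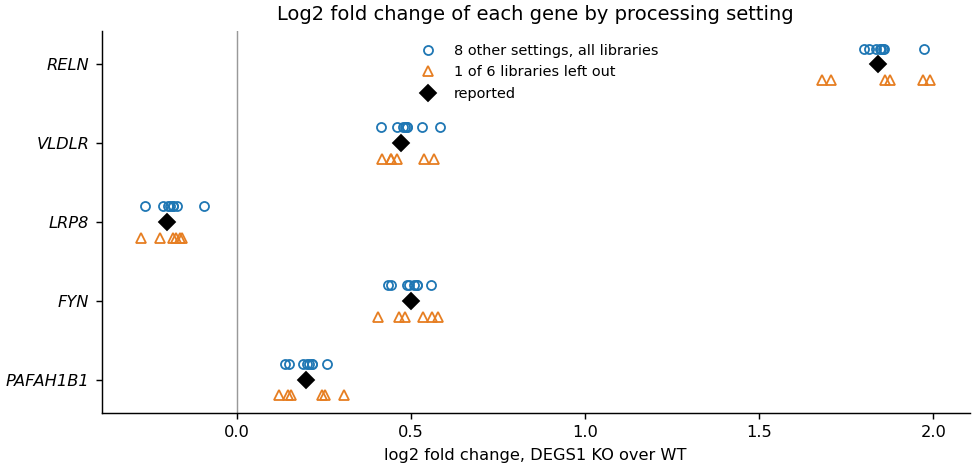
Log2 fold change of the 5 tested genes, knockout over wildtype, as reported (diamond), under 8 other settings with all libraries (circles) and with 1 of 6 libraries left out (triangles). RELN stays between 1.68 and 1.99, and no gene changes sign.

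Levels were set beside each other per length, as CPM per kb of the longest GENCODE 29 transcript, which is 11571 nt for RELN and 3628 nt for FYN. In the knockout libraries PAFAH1B1 stood at 50.1 ± 4.9 CPM per kb, RELN at 13.2 ± 2.5, LRP8 at 9.86 ± 0.31, FYN at 8.66 ± 1.0 and VLDLR at 5.95 ± 0.44 (SD, n = 3). In wildtype PAFAH1B1 stood at 43.7 ± 5.2 CPM per kb, LRP8 at 11.4 ± 1.1, FYN at 6.13 ± 0.44, VLDLR at 4.29 ± 0.47 and RELN at 3.67 ± 0.81. RELN was thus next to PAFAH1B1 in the knockout and the lowest of the 5 in wildtype. Its wildtype libraries (2.79 to 4.38 CPM per kb) overlapped those of VLDLR (3.93 to 4.83). In the knockout, RELN (10.8 to 15.8) did not overlap LRP8 (9.57 to 10.2), while FYN (7.89 to 9.79) did.

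Ratios within a library do not depend on how libraries are scaled. VLDLR per kb over LRP8 per kb was 0.629, 0.611 and 0.568 in the knockout libraries, against 0.401, 0.389 and 0.344 in wildtype. LRP8 was the more abundant receptor in all 6 libraries, by a smaller margin in the knockout. The sum of both receptors was 15.8 ± 0.72 CPM per kb in the knockout and 15.6 ± 1.5 in wildtype (SD, n = 3 each), a difference smaller than the spread within either genotype. RELN per kb over VLDLR per kb was 2.56, 2.08 and 1.99 in the knockout libraries, against 0.798, 1.11 and 0.679 in wildtype. Per kb of the longest transcript, Reelin RNA was thus above VLDLR RNA in each knockout library, and in wildtype only in replicate 2. In CPM it was also above VLDLR in wildtype replicate 1 (44.5 against 44.2). Which transcripts the cells express was not tested.

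**Figure D3:**
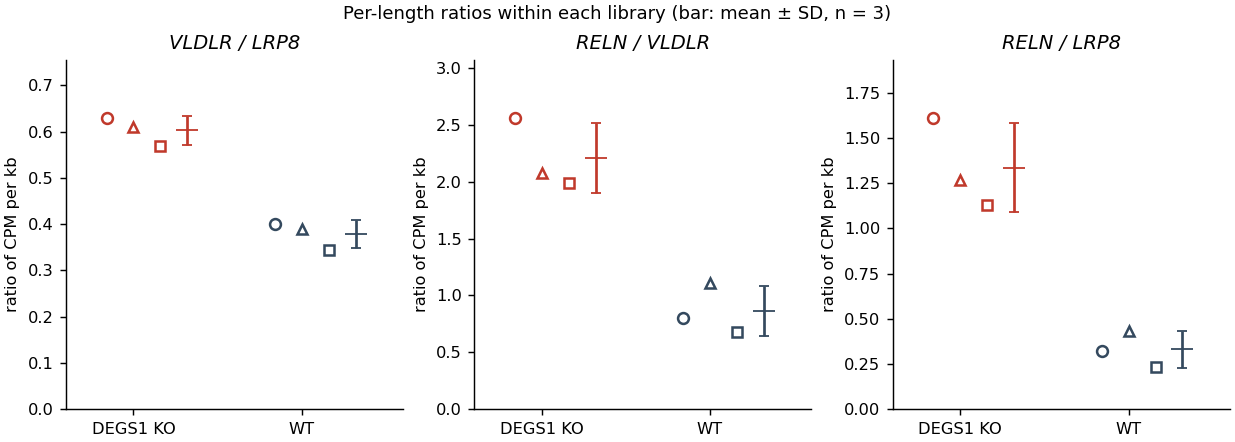
Ratios of CPM per kb within each library for VLDLR over LRP8, RELN over VLDLR and RELN over LRP8, with knockout libraries left, wildtype libraries right, and the mean ± SD of 3 libraries. For each ratio all knockout points lie above all wildtype points, and RELN over LRP8 averages 1.34 in the knockout against 0.329 in wildtype.

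The other genes of the pathway were taken from 5 lists by role, which hold 124 genes with the 6 left out. All 124 were matched, 3 of them through an older symbol, and 118 were tested. Of these 7 rose and 4 fell at an edgeR adjusted p under 0.05, or 9.32% where 4.46% of all tested genes were called. By list the share called was 40.0% of proteases and ligands, 16.7% of receptors and turnover factors and 4.76% of adaptors and kinases. It was 3.23% of downstream genes and 3.12% of the dynein list. List genes said below not to overlap between genotypes stand beside 20.8% of all tested genes that did not. The lists were chosen with earlier results of these data known, so nothing is read from these shares. With the dependence on length and GC content taken out, 9 of the list genes rose and 3 fell. In the fit without that step, the median log2 fold change of the 118 was 0.0734, against -0.0184 for all tested genes. Without wildtype replicate 2, 30 rose and 11 fell, in a fit where 3825 of all 17305 tested genes passed. The 11 called with all libraries were among them. The 11 became 5, 4 and 3 without knockout replicates 1, 2 and 3, and 4 and 7 without wildtype replicates 1 and 3. For genes that lost or gained a call when a library was left out or a setting changed, edgeR's adjusted p in that fit stands in brackets.

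The RNA of some other proteins known to bind VLDLR or LRP8 rose, namely the apolipoprotein APOE, the secreted chaperone CLU and the matrix protein THBS1. APOE had 40.0, 20.6 and 35.1 CPM in the knockout libraries, against 8.57, 7.84 and 9.80 CPM in wildtype (log2 fold change 1.87 ± 0.22 SE; adjusted p = 0.000579, edgeR). The knockout libraries spread over almost 20 CPM, yet all lay above wildtype, and the call held in every other setting. CLU had 75.1, 64.4 and 87.4 CPM in the knockout libraries, against 48.1, 50.5 and 40.9 CPM in wildtype (0.70 ± 0.13 SE; adjusted p = 0.0102, edgeR). THBS1 had 50.9, 40.0 and 35.5 CPM in the knockout libraries, against 23.3, 29.3 and 17.1 CPM in wildtype (0.85 ± 0.19 SE; adjusted p = 0.0305, edgeR). Neither CLU nor THBS1 overlapped between genotypes. Without knockout replicate 3 CLU did not pass (edgeR adjusted p = 0.0736). THBS1 did not pass without knockout replicates 1 (0.099) and 2 (0.0772) or wildtype replicate 1 (0.115). SELENOP, a selenium carrier taken up through LRP8, stood under 0.7 CPM in every library.

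Of the proteases that cut Reelin, ADAMTS2 fell. It had 8.31, 5.77 and 6.89 CPM in the knockout libraries, against 14.0, 10.5 and 13.0 CPM in wildtype (log2 fold change -0.84 ± 0.19 SE; adjusted p = 0.0275, edgeR). The groups do not overlap, but the call was lost without knockout replicates 2 (0.0883) and 3 (0.131) and without wildtype replicates 1 (0.153) and 3 (0.0578), and when scaled by library size only (0.0706). ADAMTS3, a main Reelin-cutting protease in mouse brain, and the protease PLAT are named after their values were seen. ADAMTS3 had log2 fold change 0.10 (SE 0.12; adjusted p = 0.719, edgeR) at 18.9 to 22.4 CPM, and PLAT 1.26 (SE 0.34; adjusted p = 0.0637, edgeR), which passed without knockout replicate 2 (0.0298) and without wildtype replicates 2 (0.0496) and 3 (0.0286). PLAT also passed with no expression filter (0.00885) and by the DESeq2 Wald test (adjusted p = 0.00397). PCSK6 of the same list was on the lower side, at log2 fold change -0.41 (SE 0.11; adjusted p = 0.0671, edgeR), and the DESeq2 Wald test did not call it. In this list of 10 tested proteases and ligands, 3 rose, 1 fell and 6 did not pass.

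**Figure D4:**
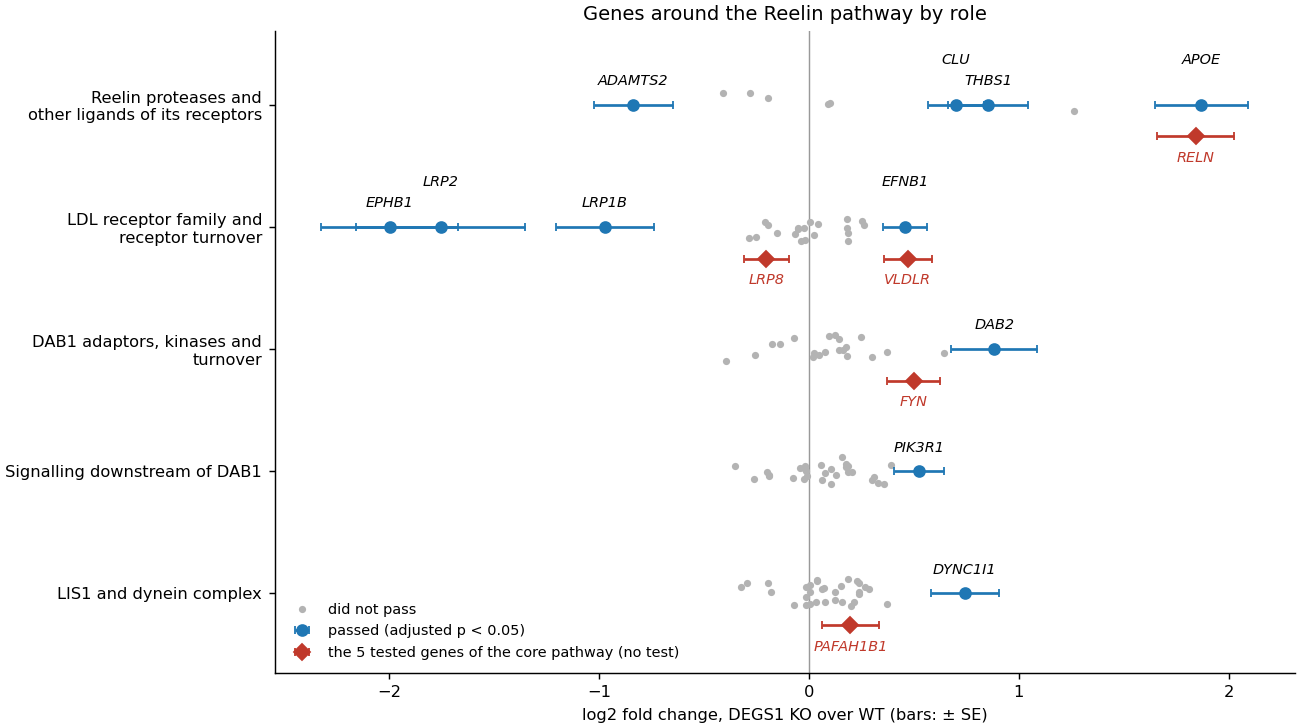
Log2 fold change, knockout over wildtype, of the 118 tested genes around the Reelin pathway by role, with those that passed at an edgeR adjusted p under 0.05 in blue and those that did not in grey. RELN, VLDLR, LRP8, FYN and PAFAH1B1 are in red, with no call drawn. Bars are ± SE; 7 genes passed to the right of 0 and 4 to the left.

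In the list of other LDL family receptors, co-receptors and factors of receptor turnover, 1 of 24 tested genes rose, 3 fell and 20 did not pass. MYLIP, the ubiquitin ligase that removes VLDLR and LRP8 from the surface, had a difference of 0.19 on the log2 scale (SE 0.12; adjusted p = 0.479, edgeR) and was named after its value was seen.

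The endocytic receptors LRP1B and LRP2 fell. LRP1B had 2.00, 2.41 and 2.81 CPM in the knockout libraries, against 4.52, 5.20 and 4.50 CPM in wildtype (log2 fold change -0.97 ± 0.23 SE; adjusted p = 0.0376, edgeR). LRP2 had 1.23, 0.459 and 0.510 CPM in the knockout libraries, against 2.56, 1.82 and 2.89 CPM in wildtype (-1.75 ± 0.40 SE; adjusted p = 0.0305, edgeR). Neither overlapped between genotypes, and both are low. LRP1B passed in no fit that left out a library except the one without wildtype replicate 2, with edgeR adjusted p of 0.186, 0.0913 and 0.103 without knockout replicates 1, 2 and 3 and 0.139 and 0.0716 without wildtype replicates 1 and 3. It also did not pass with length and GC trends removed (0.0951) or when scaled by library size only (0.0503). LRP2 did not pass without knockout replicates 2 (0.119) and 3 (0.177) or wildtype replicates 1 (0.0867) and 3 (0.0569), or when scaled by library size only (0.0709).

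Ephrin B proteins have been described as Reelin co-receptors in mouse. EFNB1 rose, with 101, 94.4 and 89.9 CPM in the knockout libraries, against 73.9, 65.1 and 68.6 CPM in wildtype (log2 fold change 0.46 ± 0.10 SE; adjusted p = 0.0297, edgeR). EPHB1, a receptor of ephrin B, fell, with 0.770, 1.15 and 1.09 CPM in the knockout libraries, against 4.40, 2.64 and 5.20 CPM in wildtype (-2.00 ± 0.33 SE; adjusted p = 0.00388, edgeR). EFNB1 and EPHB1 moved in opposite directions, each without overlap between genotypes, and EPHB1 was low, at 0.770 to 5.20 CPM. With all libraries EFNB2, EFNB3, EPHB2 and EPHB3 did not pass. Their log2 fold changes were 0.18, 0.25, 0.18 and -0.25 (edgeR adjusted p = 0.635, 0.515, 0.489 and 0.608). EPHB1 passed in every fit with a library left out. EFNB1 did not pass without knockout replicates 1 (0.142), 2 (0.0712) and 3 (0.0944) or wildtype replicates 1 (0.088) and 3 (0.0756), or when scaled by library size only (0.081).

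Beside DAB1 and FYN, 1 of 21 tested adaptors, kinases and turnover factors rose and 20 did not pass. The gene that rose was DAB2, a relative of DAB1 that binds the same kind of receptor tail in endocytosis. It had 7.59, 6.61 and 7.47 CPM in the knockout libraries, against 4.01, 3.27 and 4.50 CPM in wildtype (log2 fold change 0.88 ± 0.20 SE; adjusted p = 0.0313, edgeR). The 3 knockout libraries were within 1 CPM of each other and above all wildtype libraries. DAB2 did not pass without knockout replicates 1 (0.12), 2 (0.052) and 3 (0.157) or wildtype replicate 1 (0.128), with chromosome medians removed (0.0606) or when scaled by library size only (0.102). The other kinases that can phosphorylate DAB1, SRC and YES1, had log2 fold changes of -0.14 (SE 0.13; adjusted p = 0.646, edgeR) and 0.25 (SE 0.13; adjusted p = 0.357, edgeR), named after their values were seen. YES1 passed without wildtype replicate 2 (0.016).

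Among 31 genes of signalling downstream of DAB1, 1 rose and 30 did not pass by edgeR's test. PIK3R1, a regulatory subunit of PI 3-kinase that binds phosphorylated DAB1, had 30.7, 35.4 and 29.5 CPM in the knockout libraries, against 20.7, 23.4 and 22.5 CPM in wildtype (log2 fold change 0.52 ± 0.12 SE; adjusted p = 0.03, edgeR). Its groups do not overlap. It did not pass without knockout replicates 1 (0.0719), 2 (0.0908) and 3 (0.0776) or wildtype replicates 1 (0.183) and 3 (0.0578). The regulatory subunit PIK3R3 was more abundant, with means of 62.0 CPM in the knockout and 59.6 CPM in wildtype. With all libraries PIK3R3 (0.06; adjusted p = 0.886, edgeR) and PIK3R2 (-0.19; adjusted p = 0.545, edgeR) did not pass. The DESeq2 Wald test called PIK3R1 and also CDH2, the adhesion protein N-cadherin, which is named for that reason (adjusted p = 0.0296, DESeq2). CDH2 had 124, 119 and 122 CPM in the knockout libraries, against 94.7, 99.9 and 83.1 CPM in wildtype (0.39 ± 0.11 SE; adjusted p = 0.0752, edgeR). In edgeR it passed when scaled by library size only (0.0461), with length and GC trends removed (0.0282) and without wildtype replicate 2 (0.00477).

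Of 32 tested partners of PAFAH1B1 in the dynein and dynactin machinery, 1 rose and 31 did not pass. DYNC1I1, the dynein intermediate chain typical of neurons, had 15.1, 15.0 and 14.5 CPM in the knockout libraries, against 9.91, 9.55 and 7.12 CPM in wildtype (log2 fold change 0.74 ± 0.16 SE; adjusted p = 0.0238, edgeR). The knockout libraries were almost level and above wildtype. It did not pass without knockout replicates 1 (0.0889), 2 (0.0632) and 3 (0.0961) or wildtype replicate 3 (0.0796), or when scaled by library size only (0.0514). The other intermediate chain, DYNC1I2, was more abundant, with means of 190.0 CPM in the knockout and 157.6 CPM in wildtype. With all libraries it did not pass (0.27 ± 0.15 SE; adjusted p = 0.394, edgeR). The other PAFAH1B subunits, the enzyme subunits PAFAH1B2 and PAFAH1B3, had log2 fold changes of 0.20 (SE 0.16; adjusted p = 0.581, edgeR) and 0.08 (SE 0.13; adjusted p = 0.805, edgeR), named after their values were seen. PAFAH1B2 passed without wildtype replicate 2 (0.0124).

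In brain, Cajal-Retzius cells are a main source of Reelin, and their markers were looked at beside RELN. Of 12 such markers 7 were tested and 0 passed edgeR's test or the DESeq2 Wald test, with 2 in edgeR at an unadjusted p under 0.05, where 16.5% of all tested genes were. EBF3 had the smallest p, at log2 fold change 0.34 (SE 0.10; adjusted p = 0.105, edgeR), and passed without wildtype replicate 2 (0.0334) and with length and GC trends removed (0.037). The other was TP73, on the opposite side at -0.57 (SE 0.19; adjusted p = 0.154, edgeR), which passed without wildtype replicate 2 (0.0119). Of the 7, 3 had positive values, and the median was -0.24. The summed level of the 12 was 88.6 to 103 CPM in the knockout libraries and 79.7 to 102 CPM in wildtype. Most of this sum came from 3 genes, here with their mean CPM in knockout and wildtype. They were EBF3 (43.0 and 34.0), CACNA2D2 (32.2 and 38.2) and LHX1 (13.05 and 9.63). CALB2, LHX5, NHLH1, NDNF and SNCG did not pass the expression filter, and CALB2 had at most 0.0536 CPM in any library. Of 12 general neuron markers 8 were tested, of which SNAP25 and MAP2 rose and SYT1 and NEFL fell (log2 fold changes of 2.50, 1.41, -2.09 and -4.02). These were 50.0% of the 8, where 4.46% of all tested genes were called, and nothing is read from that share. All but MAP2 were low in 1 genotype. SNAP25 had 0.0786 to 0.268 CPM in wildtype, near the floor. SYT1 had 0.328 to 0.564 CPM and NEFL 0.0382 to 0.948 CPM in the knockout. SNAP25 was not tested with a minimum of 1 CPM in 3 libraries. The summed level of the 12 neuron markers was 190 to 206 CPM in the knockout libraries and 174 to 182 CPM in wildtype. Most of it came from TUBB3, with means of 117.7 CPM in the knockout and 130.9 CPM in wildtype, and MAP2, with 68.1 and 25.8 CPM. Of the 8 tested, 3 had positive log2 fold changes, and the median was -0.10. MAP2 did not pass without wildtype replicate 2 (0.0535), SNAP25 without knockout replicates 1 (0.0634) and 3 (0.0514) or wildtype replicate 1 (0.0737), and NEFL without knockout replicate 1 (0.0891) or wildtype replicates 1 (0.151) and 3 (0.15). Without knockout replicate 2 NEFL had a difference of -3.44 on the log2 scale, and with no expression filter it did not pass (0.12). The part of such markers in the RELN level was not tested.

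Genes beside each of the 5 were read in the order of RefSeq GRCh38.p14, with the 5 tested genes on each side. Of the 10 neighbours of RELN on chromosome 7, 0 passed edgeR's test or the DESeq2 Wald test, with 2 at an unadjusted edgeR p under 0.05, and their log2 fold changes ran from -0.58 to 0.39 with a median of -0.02. Of the 10 neighbours each of LRP8, FYN and PAFAH1B1, 0 passed edgeR's test, with 0, 2 and 2 at an unadjusted p under 0.05 and medians of 0.16, -0.19 and -0.20. The DESeq2 Wald test called 1 of them, LAMA4 beside FYN. Of the 10 neighbours of VLDLR on chromosome 9, 5 had an unadjusted edgeR p under 0.05, where 16.5% of all tested genes did. Their median log2 fold change was 0.23. Of these 10, GLIS3 rose (log2 fold change 1.10 ± 0.14 SE, adjusted p = 0.000626, edgeR) and DMRT2 fell (-2.33 ± 0.54 SE, adjusted p = 0.0327, edgeR). The DESeq2 Wald test called 3, these and DMRT3 (-2.10 ± 0.56 SE, adjusted p = 0.0582, edgeR). All 3 were named after their values were seen. DMRT2 did not pass without knockout replicates 1 (0.135) and 3 (0.19) or wildtype replicate 1 (0.0561), and its log2 fold change moved to -3.11 without knockout replicate 2. Chromosome medians of the log2 fold change left out low genes, keeping those whose average log2 CPM exceeded 3. They were 0.04 for chromosome 7 (490 genes) and -0.04 for chromosome 9 (425 genes). For chromosomes 1 (LRP8), 6 (FYN) and 17 (PAFAH1B1) they were 0.002, 0.09 and 0.09. With chromosome medians removed, the log2 fold changes of RELN, VLDLR and LRP8 were 1.82, 0.53 and -0.17. Those of FYN and PAFAH1B1 were then 0.43 and 0.14.

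**Figure D5:**
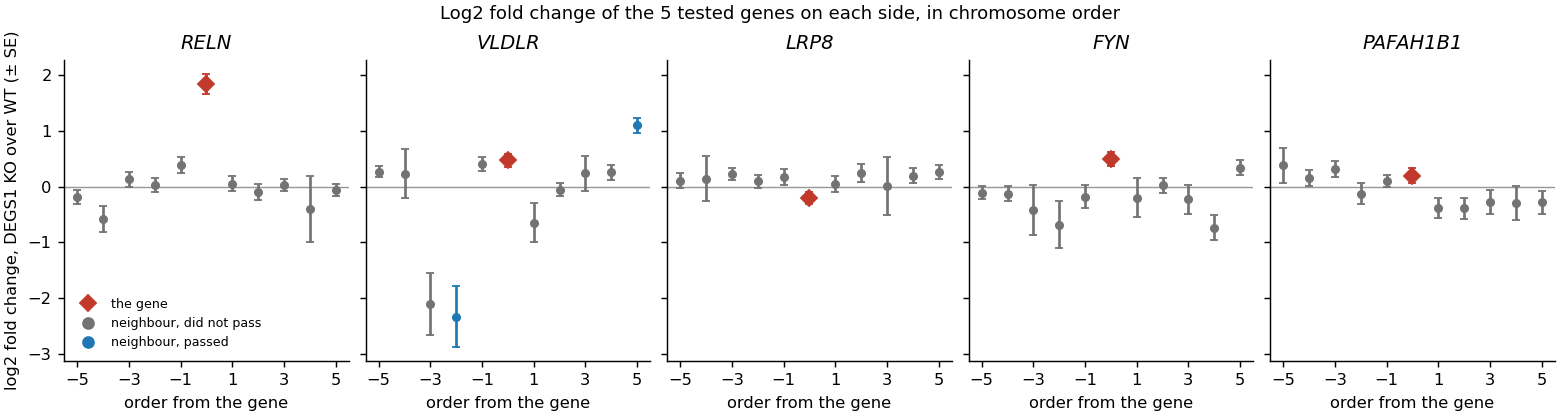
Log2 fold change ± SE, knockout over wildtype, of the 5 tested genes on each side of RELN, VLDLR, LRP8, FYN and PAFAH1B1 in chromosome order (red diamond, the gene itself; blue, neighbours that passed; grey, those that did not). The neighbours of RELN lie between -0.58 and 0.39, and VLDLR alone has neighbours that passed, 1 higher and 1 lower.

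The genes whose log2 CPM over the 6 libraries most resembled each of the 5 were ranked by Pearson's r among 11662 genes that reached a mean of 5 CPM in either genotype. For RELN these were ADD1 (r = 0.997), ARHGAP21 (0.996) and SLC8A1 (0.995). ADD1, a cytoskeletal adducin, and ARHGAP21 shared the shape but not the size, with log2 fold changes of 0.22 and 0.35, while SLC8A1, a sodium and calcium exchanger, had 0.98. For VLDLR they were SNX8, FNDC3B and GLCCI1 (r of 0.986 to 0.994), and for FYN TSPAN15, ZNF266 and CENPI (0.986 to 0.99). LRP8 resembled a gene known only by a clone name, ABCC1 and SYPL2 (0.996 to 0.998), and PAFAH1B1 resembled JAK1, OAZ2 and STRA13 (0.995 to 0.996). The 6 points are the same libraries for every gene and hold 2 genotypes, so r is given as a description.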

How the data were processed

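RNA of HAP1 cells was sequenced in 6 libraries, 3 per genotype. Per the labels' protocols, cells were collected 24 h after passage and a stranded kit for total RNA, loaded with 1 ug, gave single reads of 75 nt. The authors deposited raw counts per gene symbol. Per the submitters' processing notes, bcl2fastq 2.20 and hg19 were used; aligner, counter, annotation and strand setting: not given in the sources used here.

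Counts of all genes were fitted with edgeR 4.0.16 in R 4.3.3 (limma 3.58.1), with trimmed-mean scaling, the default expression filter and genotype alone, by a robust quasi-likelihood test. Standard errors were derived from the log2 fold change and its F statistic. DESeq2 1.42.0 served as an alternative, and the fit was tested on simulated data. Log2 CPM for spreads and correlations used a prior count of 2. GENCODE 29 gave transcript lengths for 94.1% of tested genes. RefSeq GRCh38.p14 gave promoters, chromosomes and gene order, so no coordinate was taken to hg19.

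The 6 genes and the lists were chosen with earlier results of these data known, and 2 genes of the lists are not reported here. Named are the 6, DEGS1, each called list gene or the smallest p of a list without one, and the 3 genes most like each tested gene. Further genes were named after their values were seen: ADAMTS3, PLAT, SELENOP, MYLIP, SRC, YES1, CDH2, PAFAH1B2, PAFAH1B3, TP73, CALB2, LAMA4, GLIS3 and DMRT2. TUBB3, DMRT3, EFNB2, EFNB3, EPHB2, EPHB3, CACNA2D2, LHX1, LHX5, NHLH1, NDNF, SNCG, DYNC1I2, PIK3R2, PIK3R3 and PCSK6 were also named in this way. Libraries of a genotype differed beyond sampling noise (chi-square per degree of freedom 12.6 to 52.6), so none was counted as a repeat. The floor reflects counting error alone, as reads carry no molecular identifiers and PCR copies are not separate molecules.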

Additional observations from a re-analysis of the deposited data

How the results depend on the processing

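Alternatives were DESeq2 size factors, library size only, the DESeq2 Wald test, the replicate block, a minimum of 1 CPM in 3 libraries or no filter, each library left out, a threshold of 0.01, and removal of length and GC trends or of chromosome medians. The 756 changed genes became 380 to 3825 with 1 library left out and 375 at the threshold of 0.01. The 11 changed pathway genes became 3 to 41 with 1 library left out, 7 with library size only and 2 at 0.01. The cause was not tested. With the replicate number as a block the counts were 1082 and 14, but same-numbered libraries did not all deviate together (r of 0.215, 0.309 and -0.125). The labels give them a shared code without its meaning, so whether the numbers pair them is not known, and they were not treated as pairs. Under the block PLAT and CDH2 passed (edgeR adjusted p = 0.0052 and 0.0393). No log2 fold change of the 5 tested genes, DEGS1 or a called list gene changed sign in these settings. DAB1, at 0 to 2 counts per library, was too low to be tested.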
